A study of Mus musculus with 4 samples.

Results

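Clone E1 was compared with clone C1, a pair of independent immortalised cell clones, over all 4 arrays of the series and all 45037 probe sets that are not array controls. Both clones came from mammary epithelial cell cultures of Deaf-1-null animals and carried the HPV16 E6/E7 genes, so the arrays of both clones share the missing Deaf-1 gene and the viral oncoproteins. Each clone was infected either with a retrovirus encoding Deaf-1 or with the empty retrovirus, and RNA was taken after a 48 hour selection in puromycin. Clone C1 therefore gave 2 arrays (empty and Deaf-1) and clone E1 gave 2 arrays (empty and Deaf-1), 1 for each clone and retrovirus. The animals were females aged 8 weeks, and the sources differ on whether 1 mouse or several were used. The comparison asks which RNAs differed between the clones whatever the retrovirus. With 1 clone of each kind, a difference describes these clones and no wider class of cells.

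As background, E6 directs the degradation of p53, the inducer of cell cycle arrest genes, and E7 inactivates the retinoblastoma proteins, which hold back the E2F factors that drive replication genes. The mammary gland holds a luminal layer (marked by the keratins Krt8 and Krt18), a basal layer (Krt5, Krt14 and smooth muscle actin) and, around the ducts, stromal fibroblasts and adipocytes. A clone can pass on the expression state of its founding cell, including which developmental regulators are read.

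The values are RMA expression on the log2 scale, so that a difference of 1 is a 2-fold difference in signal. A level of 3.83, the 95th percentile of the means of 44 olfactory receptor probe sets, was taken as background. On any one array 49.2% to 50.8% of probe sets exceeded it. Across probe sets the arrays of one clone correlated at 0.994 (C1) and 0.992 (E1), and arrays of different clones at 0.976 to 0.983. The 4 arrays were fitted with clone and retrovirus in the model by limma, which leaves 1 residual degree of freedom for each probe set. Its p-values cover the spread among these 4 arrays, which may be technical, and say nothing of other clones or mice; so few arrays limit the precision.

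Deaf1 itself was at 5.01 and 6.73 in clone C1 (empty, then Deaf-1 retrovirus) and at 4.91 and 6.25 in clone E1. The retroviruses were thus told apart in both clones, and E1 minus C1 was -0.29 (standard error 0.17, limma's adjusted p = 0.551). Whether the probe set reads the deleted part of the gene was not stated. Xist, the RNA that coats the inactive X chromosome, was between 7.16 and 7.96 on all arrays, and the Y-linked Kdm5d, Uty and Eif2s3y were below background.

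The label of epithelial cells was checked against marker genes. Krt8 was at 3.57 and 3.46 in C1 and at 3.84 and 4.01 in E1, Krt18 was between 2.75 and 3.51, Krt14 between 3.37 and 3.72, and the epithelial cadherin Cdh1 between 2.22 and 2.42. These defining markers were below background or less than 0.2 above it in both clones, and so were the milk proteins Csn2, Wap and Lalba. Krt5 at 4.45 to 4.74 and Epcam at 5.81 to 6.33 lay above it. A second Epcam probe set averaged 3.42 in C1 and 3.74 in E1, below background. Of 26 luminal markers 10 to 14 were above background on an array, and of 26 basal and myoepithelial markers 16 to 18. The fibroblast list stood out with 27 to 29 of 30 markers above background. Col1a1, Col1a2, Col3a1, Sparc and Vim, all of them abundant RNAs of mesenchymal cells, were between 12.13 and 13.63 on every array. Of these, Sparc and Vim were on the basal and myoepithelial list and not on the fibroblast list. Acta2, the smooth muscle actin of that basal list, was bright on all arrays too. The summed log2 level of the 30 fibroblast markers was 282 and 284 in C1 and 284 and 285 in E1. That of the luminal markers was 105 and 104 against 101 and 106, and that of the basal markers 160 and 159 against 151 and 156. The RNA of both clones therefore goes against a purely epithelial label on these markers, and the cells are called clones here. Of 20 endothelial markers 7 to 10 and of 22 immune cell markers 6 or 7 were above background on an array, while the defining Pecam1 and Ptprc were below it on all arrays. In bulk RNA fewer cells of a type and less RNA per cell cannot be told apart.

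Genes above background in one clone and below it in the other gave the sharpest contrast. By the rule of both arrays of a clone at or below background and both arrays of the other at least 2 log2 units above it, 13 genes were on only in E1 (Fabp4, Casp1, Rpl39l, Mageh1, Popdc3, Hoxa11, Dock10, Pparg, Clca3a1, Pcdhb22, Hoxa11os, Aspn and Abcg1). By the same rule 9 genes were on only in C1 (Lhx8, Car6, Vit, Zfpm2, Abi3bp, Actg2, Crybg1, AI606473 and Prg4). With the level set at 4 these counts were 11 and 12. Such counts are a description of these arrays, with no test. Where a clone is below background, the log2 difference printed for a gene is the fitted one and its exact size is not measured.

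Promoter sequences are shown for 3 of these genes, because neighbouring genes were on or off together at the first and second and because the third is a gene on in E1 alone. The 250 bases before the transcription start are given 5′ to 3′ on the strand of the gene, from RefSeq (GRCm38.p6), in lower case with each CG dinucleotide, the site of DNA methylation, in capitals. Lhx8 lies on the minus strand with its window at chr3:154330561-154330810. AI606473, an unnamed transcript on the plus strand, starts 261 bases away, so that 240 bases of its own window are the same bases read on the other strand. Hoxa11 lies on the minus strand (chr6:52245811-52246060) and Hoxa11os, its antisense transcript, starts 567 bases inside it on the plus strand. Casp1 lies on the plus strand (chr9:5298267-5298516).
Lhx8: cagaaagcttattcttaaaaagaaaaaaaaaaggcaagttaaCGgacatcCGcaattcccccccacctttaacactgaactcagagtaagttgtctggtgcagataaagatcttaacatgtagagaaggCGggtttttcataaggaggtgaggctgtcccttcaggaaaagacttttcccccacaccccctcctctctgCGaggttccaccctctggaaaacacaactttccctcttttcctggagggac
Hoxa11: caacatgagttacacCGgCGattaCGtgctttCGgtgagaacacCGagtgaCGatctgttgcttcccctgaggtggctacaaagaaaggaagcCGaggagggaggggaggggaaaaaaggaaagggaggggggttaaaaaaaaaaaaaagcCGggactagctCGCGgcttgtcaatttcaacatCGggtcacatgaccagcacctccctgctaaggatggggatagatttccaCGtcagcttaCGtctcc
Casp1: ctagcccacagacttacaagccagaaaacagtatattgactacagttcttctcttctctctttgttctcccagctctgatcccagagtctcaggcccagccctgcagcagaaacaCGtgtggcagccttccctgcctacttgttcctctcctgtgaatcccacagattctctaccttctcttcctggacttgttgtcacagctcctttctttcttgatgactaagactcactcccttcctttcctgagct
The Lhx8 window holds 4 CG, that of Hoxa11 13 and that of Casp1 1. Among all promoters listed, whose median is 6 CG, 61.9%, 31.8% and 91.7% respectively hold at least as many. Promoters were found for 9 of the 13 genes on in E1, with a median of 12 CG, and for 4 of the 9 on in C1, with a median of 4, against 13 for the 14452 measured genes with a promoter. The TATA motif TATAAA, searched on both strands and unable to overlap a CG, was in 2 of the 9 and 0 of the 4 promoters. It was in 13.0% of all promoters and in 9.02% of those of measured genes. A match is a description of letters and not of a binding site.

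Over all genes the clones differed at many, but few passed the test after adjustment. At an adjusted p under 0.05, 31 probe sets rose in E1 relative to C1 and 18 fell, 49 or 0.109% of 45037. All 49 had clones whose arrays did not overlap, which was true of 47.1% of all probe sets. Their differences were between 2.49 and 7.40 log2 units, and 41 of them carry a single symbol and read 37 genes, 23 that rose and 14 that fell. Another 5 carry several symbols and 3 carry none, and these are not named. A fit of 3 arrays leaves no room for the retrovirus, so leaving out an array also dropped the block, left 1 clone with a single array assumed to vary like the other clone, and mixed clone with retrovirus. In each of these 4 fits limma called 0 probe sets in either direction at that threshold, with 2524 to 4207 higher and 2715 to 4712 lower at an unadjusted p under 0.05. After median centring 723 were called higher and 868 lower, after a further quantile normalization 683 and 603, and after cyclic loess 524 and 412. Each of the 49 was called with the same direction after these scalings. The smallest adjusted p not called was 0.0529.

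At the unadjusted p under 0.01 that the study used as its own threshold, 634 of 18193 genes (1 probe set each) were higher in E1, 3.48% of genes tested, and 631 were lower, 3.47%. Of the 11688 genes above background on both arrays of a clone, 616 were higher and 621 lower. The counts of the gene lists below are to be set beside these shares, and the lists were chosen with earlier results of these data known. Differences of at least 1 log2 unit in the same direction with both retroviruses, a count with no test, were seen for 222 genes higher in E1 (1.22%) and 187 lower (1.03%). Where a gene with p under 0.01 had further probe sets above background, 908 of these 969 (93.7%) pointed the same way. The difference between clones with the Deaf-1 arrays and that with the empty arrays, which share no array, correlated at 0.54 across probe sets.

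**Figure D1:**
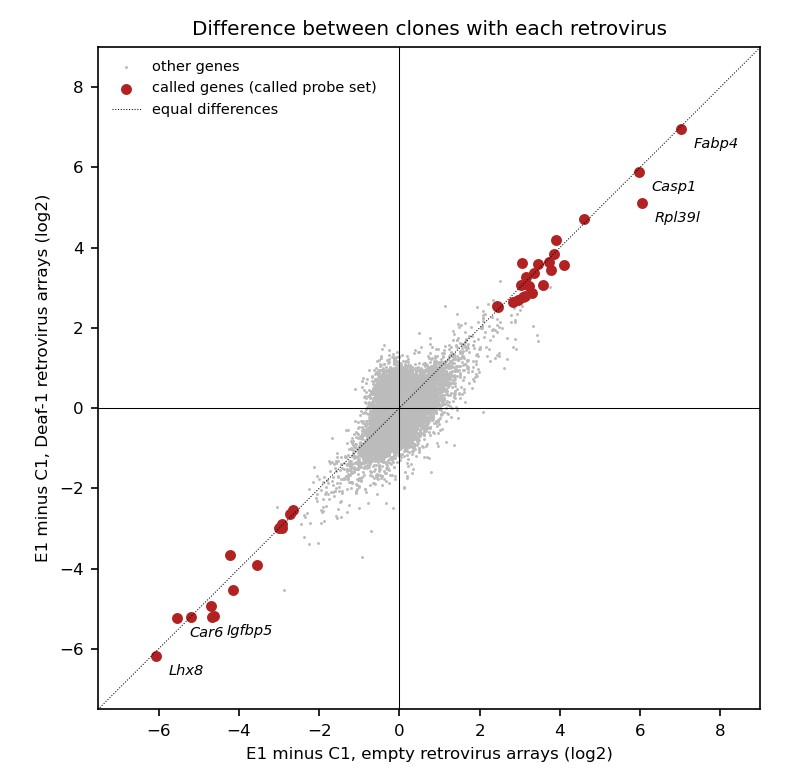
Difference in expression between the clones (E1 minus C1, log2) on the empty retrovirus arrays (horizontal axis) and on the Deaf-1 retrovirus arrays (vertical axis) for 18193 genes (grey) and the genes called at an adjusted p under 0.05 (red, at the called probe set). The called genes lie close to the dotted line of equal differences, from Lhx8 at the lower left to Fabp4 at the upper right. A call requires the clone differences with both retroviruses to be alike, so this closeness follows from the selection.

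Fabp4 had the largest rise of a named gene. Fabp4, which encodes the fatty acid binding protein of adipocytes and macrophages, was at 2.57 and 3.77 in C1 (empty, then Deaf-1) and at 10.59 and 10.56 in E1 at its brightest probe set. Both C1 arrays lay below background and both E1 arrays were among bright signals. The difference was 7.40 (standard error 0.33, limma's adjusted p = 0.0322), and a second probe set gave 6.99 with both C1 arrays at 2.46 and 2.42. The other 2 Fabp4 probe sets, with means below background, read 1.11 and 0.75. Pparg, the nuclear receptor that directs adipocyte differentiation and induces Fabp4, was at 3.16 and 2.95 in C1 and 6.62 and 6.53 in E1, a rise of 3.53 (standard error 0.15, adjusted p = 0.0313). Again no array of one clone reached the range of the other. Of 35 adipocyte and adipogenic genes measured, 8 were higher and 2 lower at p under 0.01 (3.48% and 3.47% over all genes). Fabp5, which binds fatty acids in epidermis and macrophages, was 2.05 higher, Cebpa, a partner of Pparg, 1.21 higher and Scd1, a fatty acid desaturase, 0.99 higher, none of them past the adjusted threshold. Dlk1, a membrane protein that holds back adipocyte differentiation, was at 9.59 and 9.63 in C1 and 7.28 and 7.02 in E1 (difference -2.45, adjusted p = 0.0529), and Cebpd, an early factor of the same programme, was 1.26 lower. Among other members, Adipoq was between 2.25 and 2.40 and Cd36 between 2.43 and 2.71, below background on all arrays, and Lpl was high in both clones (12.42 to 12.74). The median over the list was 0.07, against 0.02 over all genes, and -0.04 when only probe sets with a mean of at least 6 were kept.

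Casp1, the protease that matures interleukin-1 beta and interleukin-18 in inflammasomes, was at 3.23 and 3.22 in C1 and at 9.20 and 9.09 in E1. It rose by 5.92 (standard error 0.14, adjusted p = 0.0183), at least 39.9-fold when C1 is set at background. Its substrates and a sensor were dim in both clones: Il1b was between 3.79 and 4.23 over the 4 arrays, around the background level, and Il18 (3.31 to 3.77) and Nlrp3 (3.44 to 3.75) were below it. In the list of Bcl2 family members and caspases 5 of 30 measured genes were higher in E1 at p under 0.01 and 0 lower (3.48% and 3.47% over all genes). These were Casp1, the initiator caspase Casp8 (0.93), and from the Bcl2 family the pro-apoptotic Pmaip1 (1.64) and Bok (1.18) and the anti-apoptotic Bcl2l1 (1.04). The list's median was 0.09, and without chromosomes 1, 10 and 16, where Casp8 and Bok lie on chromosome 1, 3 of the 5 were left.

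In a list of 81 homeobox, Sox, Tbx, Fox and Gata factors, 6 were higher and 2 lower at p under 0.01 (3.48% and 3.47% over all genes). The median was 0.07 and 0 passed adjustment, but Lhx8 and Hoxa11 were counted in other lists. Lhx8, a LIM homeobox factor of forebrain and teeth, was at 8.59 and 9.0 in C1 and at 2.52 and 2.82 in E1. It fell by 6.12 (standard error 0.15, adjusted p = 0.0183), and was at least 31.3-fold higher in C1 when E1 is set at background. Its neighbour AI606473 was at 6.41 and 6.98 in C1 and 2.87 and 3.06 in E1 (-3.73, adjusted p = 0.0322), and both genes were thus below background in E1. In the list of LIM factors and LDB cofactors, partners of Lmo4 and Deaf-1, 2 of 19 were lower, Lhx8 and Lhx6 (-0.77), and Lmo4 itself was between 7.92 and 8.37 in both clones. Zfpm2, a cofactor of GATA factors, was at 7.20 and 7.49 in C1 and 2.54 and 2.28 in E1, a fall of 4.94 (adjusted p = 0.03), with -1.96 at a dimmer probe set.

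Hoxa11, a homeobox gene of limb and uterus, was at 3.33 and 3.41 in C1 and 7.19 and 7.25 in E1. It rose by 3.85 (standard error 0.14, adjusted p = 0.03), and Hoxa11os rose by 2.49 (adjusted p = 0.0434). The next genes of the cluster differed in a smaller way. Hoxa13 was 1.07 higher at p under 0.01, whereas Hoxa10 (0.40) and Hoxa9 (-0.32), which were above background in both clones, did not pass. Of 33 Hox genes measured 4 were higher and 2 lower at p under 0.01, among them Hoxc4 with -1.33, and the median was -0.00. The shares over all genes were 3.48% and 3.47%.

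Other genes that rose in E1 belong to several families, and not all of them were off in C1. Bves (4.03 and 4.53), Gpnmb (5.01 and 4.98) and Epas1 (5.48 and 6.03) were above background on both C1 arrays. Mageh1, a member of the MAGE family on the X chromosome, was at 2.88 and 2.83 in C1 and 7.48 and 7.54 in E1 (4.66, adjusted p = 0.0244). Popdc3 and Bves, neighbouring genes for Popeye proteins, which bind cAMP in muscle membranes, rose by 4.04 and 3.33, Popdc3 from 3.06 and 2.84 to 6.95 and 7.02. Rpl39l, a copy of the ribosomal protein gene Rpl39, rose by 5.57 (standard error 0.27), while Rpl39, read by another probe set, averaged 5.66 in C1 and 5.78 in E1. Dock10 rose by 3.84, Epas1, the hypoxia-inducible factor 2 alpha, by 2.97, Gpnmb, a membrane glycoprotein, by 3.36 and Kif1a, a motor of vesicle transport, by 2.92. St8sia4, a polysialyltransferase, rose by 2.74. Clca3a1 rose by 3.34 at a probe set of the _x_at kind, which can match other transcripts, and a second one stayed below background with 0.36. The unnamed transcript 2610528A11Rik rose by 2.49.

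**Figure D2:**
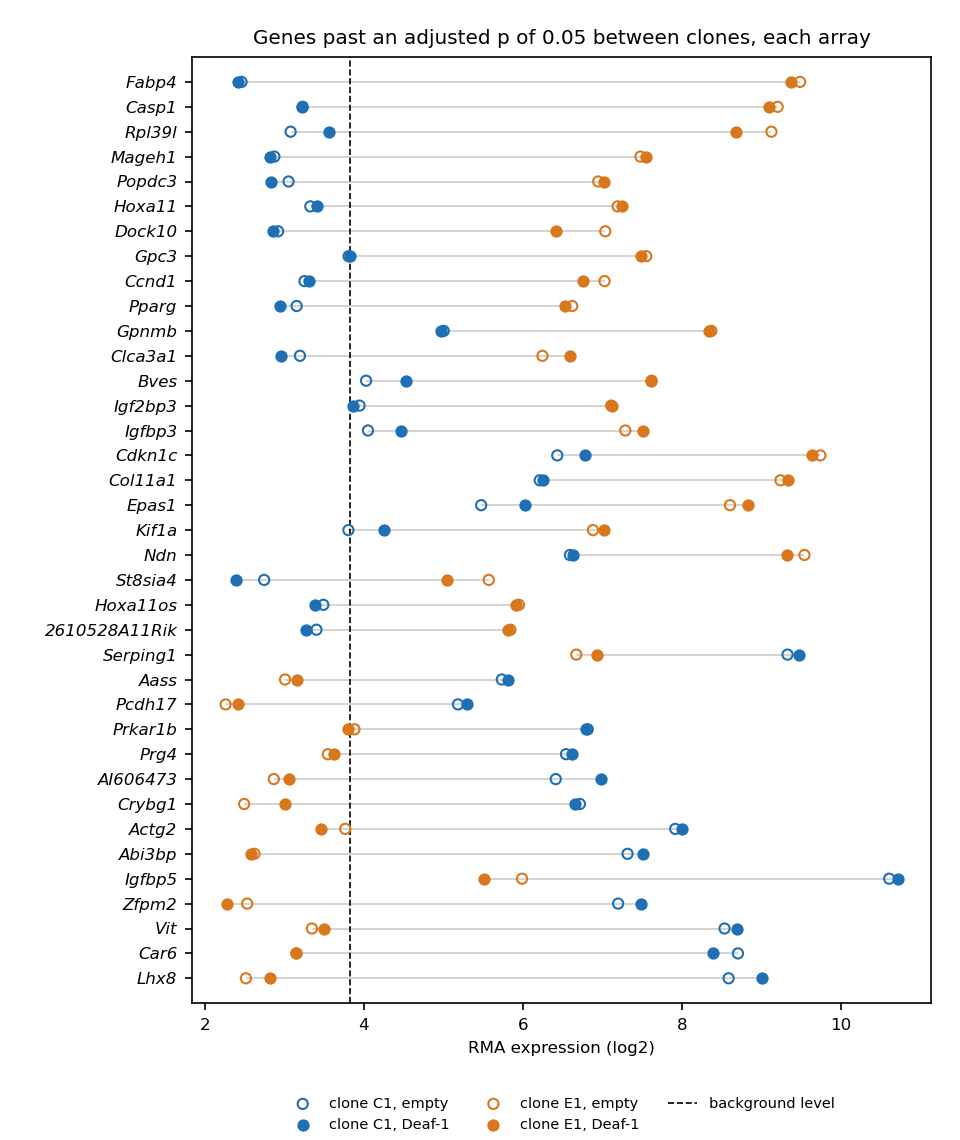
RMA expression (log2, horizontal axis) on each array of the genes called between clones at an adjusted p under 0.05, with C1 arrays blue, E1 arrays orange, open circles for the empty and filled circles for the Deaf-1 retrovirus, and a dashed line at background (3.83). The arrays of a clone lie close together, and genes are ordered by the difference from Fabp4 (E1 higher) to Lhx8 (C1 higher). The test selects genes whose clone difference is alike with both retroviruses.

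Matrix genes differed in both directions. Vit (vitrin), an extracellular matrix protein, was at 8.53 and 8.69 in C1 and 3.35 and 3.50 in E1. It fell by 5.19 (standard error 0.14, adjusted p = 0.0225). Abi3bp, another matrix protein, fell by 4.81 and by 3.78 at 2 probe sets (adjusted p = 0.0244 and 0.0322), and Prg4, the joint lubricant lubricin, fell by 2.99, from 6.54 and 6.61 to 3.55 and 3.62. Col11a1, a minor chain of fibrillar collagen, was at 6.21 and 6.25 in C1 and 9.24 and 9.33 in E1, a rise of 3.05 (standard error 0.14, adjusted p = 0.0322). Among 40 collagen chains 5 were higher and 1 lower at p under 0.01 (3.48% and 3.47% over all genes). They included Col6a3 at 2.25 and Col12a1 at 1.06 next to Col11a1, and Col14a1 at -0.97. The median was 0.27, and 0.28 without the genes of chromosomes 1, 10 and 16.

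Matricellular proteins and small proteoglycans, which tune the matrix and its signals, held 13 of 38 genes higher and 2 lower at p under 0.01 (3.48% and 3.47% over all genes). The median was 0.19 (0.35 without chromosomes 1, 10 and 16). Dermatopontin (Dpt) was at 4.71 and 5.42 in C1 and 8.45 and 8.44 in E1, a difference of 3.38 with an adjusted p of 0.0529. Asporin (Aspn) differed by 2.47, Ccn4 by 1.71 and Ogn by 1.33. Lumican (Lum) went the other way, with 6.52 and 6.94 in C1 and 4.26 and 3.57 in E1, and so did Ecm1 with -2.19. None of the 38 passed the adjusted threshold. All those named had clones that did not overlap, as did 47.1% of all probe sets.

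Glypicans carry heparan sulfate at the cell surface and bind growth factors. Gpc3 was at 3.81 and 3.83 in C1, at the background level, and at 7.55 and 7.48 in E1, a rise of 3.70 (standard error 0.14, adjusted p = 0.03). Gpc1, Gpc6 and Gpc4 were 1.17, 1.14 (0.34 at a second probe set) and 0.81 higher, and of the enzymes that build or trim heparan sulfate Sulf2 (1.45, but -0.18 at a second probe set) and Hs6st1 (1.18) were higher and Hs3st1 (-1.14) was lower. In all 7 of 20 genes were higher and 1 lower at p under 0.01 (3.48% and 3.47% over all genes), while the median over the list was 0.04. Gpc1 and Hs6st1 are on chromosome 1, and without chromosomes 1, 10 and 16 the counts were 4 and 1.

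Igfbp5 and Igfbp3, which bind insulin-like growth factors and limit access to their receptor, differed in opposite directions. Igfbp5 was at 10.60 and 10.71 in C1 and at 5.99 and 5.52 in E1. It fell by 4.90 (standard error 0.20, adjusted p = 0.0313), and by 2.98 at a second probe set (adjusted p = 0.0388). Igfbp3 was called at a dim probe set, with 4.05 and 4.47 in C1 and 7.29 and 7.50 in E1 (3.13, adjusted p = 0.0322). At the brighter one the difference was 3.12 with an adjusted p of 0.0529. Irs1, a docking protein of the receptor, was 1.84 higher, Pappa, a protease that cleaves binding proteins, 1.19 higher and the ligand Igf1 0.84 lower. Of 22 genes of the axis 4 were higher and 2 lower at p under 0.01 (3.48% and 3.47% over all genes). The median of 0.06 became -0.14 among probe sets with a mean of at least 6. Igf2bp3, an RNA-binding protein, rose by 3.21 at the called probe set (adjusted p = 0.0322) and differed by 0.95 at its brightest.

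Some smooth muscle genes were lower in E1. Actg2, the enteric smooth muscle actin, was at 7.91 and 8.0 in C1 and at 3.77 and 3.47 in E1, a fall of 4.34 (standard error 0.17, adjusted p = 0.03). Cnn1 (calponin) was 1.51 lower, Mylk (myosin light chain kinase) 1.15 lower and Myl9 (a myosin light chain) 0.70 lower. Of 22 genes 4 were lower and 0 higher at p under 0.01 (3.47% and 3.48% over all genes). Acta2, also a marker of myofibroblasts and myoepithelium, was between 11.46 and 11.83 on all arrays (-0.31) and did not pass. The list's median was -0.02.

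Among other genes that fell, Car6, the secreted carbonic anhydrase, was at 8.70 and 8.39 in C1 and 3.15 on both E1 arrays (-5.39, adjusted p = 0.0244). Crybg1 fell by 3.94, the protocadherin Pcdh17 by 2.90, the lysine-degrading enzyme Aass by 2.68 and Serping1, the inhibitor of complement C1, by 2.60. Prkar1b, a regulatory subunit of protein kinase A, fell by 2.96 at an _x_at probe set and differed by -1.37 at its brightest and by as little as -0.53 at others. Car6 and Crybg1 were below background in E1, while Serping1 was still at 6.67 and 6.93 there.

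Cdkn1c and Ccnd1 rose among the growth control genes. Cdkn1c, the imprinted inhibitor p57, was at 6.43 and 6.78 in C1 and 9.74 and 9.64 in E1, a rise of 3.08 (standard error 0.18, adjusted p = 0.0439). Ccnd1, cyclin D1, was at 3.26 and 3.32 in C1 and 7.03 and 6.76 in E1 at the called probe set (3.61, adjusted p = 0.0322), and differed by 2.42 and 2.57 at its other ones. In C1 that probe set lay below background and the brightest read 4.53 and 4.54. The median of 39 cyclin D, INK4 and p53-linked growth control genes was 0.29 (0.33 without chromosomes 1, 10 and 16). At p under 0.01, 11 were higher and 1 lower (3.48% and 3.47% over all genes). They included p53 targets: Cdkn1a, the inhibitor p21, was at 9.25 and 9.01 in C1 and 10.69 and 10.70 in E1 (1.56, adjusted p = 0.078). Trp53inp1 (2.06), Ccng1 (1.76), Pmaip1 (1.64), Phlda3 (1.48), Zmat3 (1.05) and Aen (0.93) were higher too. Mdm2, a p53 target that opposes p53, differed by 0.48 and did not pass, and Sesn1, on chromosome 10, was 0.94 lower.

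In the list of DNA replication and mitosis genes 14 of 53 were higher and 0 lower at p under 0.01 (3.48% and 3.47% over all genes). A higher mean in E1 was seen for 41 of the 53. Rrm2, a subunit of the enzyme that makes deoxynucleotides, was at 8.59 and 8.61 in C1 and 9.95 and 9.92 in E1 (1.33, adjusted p = 0.0862). The mitotic genes Kif20a (0.99), Cenpf (0.96), Mki67 (0.96), Tpx2 (0.89) and Aurka (0.80) differed by less than 1 each, though a second Tpx2 probe set gave 0.12. Their clones did not overlap, as was true of 47.1% of all probe sets. The list's median was 0.42 with and without the genes of chromosomes 1, 10 and 16, 0.43 on the Deaf-1 arrays and 0.51 on the empty arrays, and 0.26 when all probe sets of a gene were averaged. Growth rates of the clones were not analysed here.

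Immediate early genes, switched on within minutes by growth factors or handling, were lower in E1. Of 29 measured 11 were lower and 0 higher at p under 0.01 (3.47% and 3.48% over all genes). The median was -0.35 (-0.24 without the genes of chromosomes 1, 10 and 16). Dusp1, a phosphatase that ends MAP kinase signals, was at 10.62 and 10.90 in C1 and 8.81 and 9.12 in E1 (-1.80, adjusted p = 0.0607). Dusp4 (-1.99), the receptor Nr4a1 (-1.58), Klf2 (-1.34), Ier3 (-1.31), Ier2 (-1.04) and Junb (-0.96) were lower as well. Fos (-0.44) and Egr1 (-0.08) did not pass. The list's median was -0.20 without the empty array of E1. The stress-induced chaperones Hspa1b (-1.96), Hspa1a (-1.87) and Hspb1 (-1.09), of which the first and second are neighbours and close copies, were lower too. In their list of 38 chaperone and unfolded protein genes 4 were lower and 0 higher at p under 0.01 (3.47% and 3.48% over all genes).

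**Figure D3:**
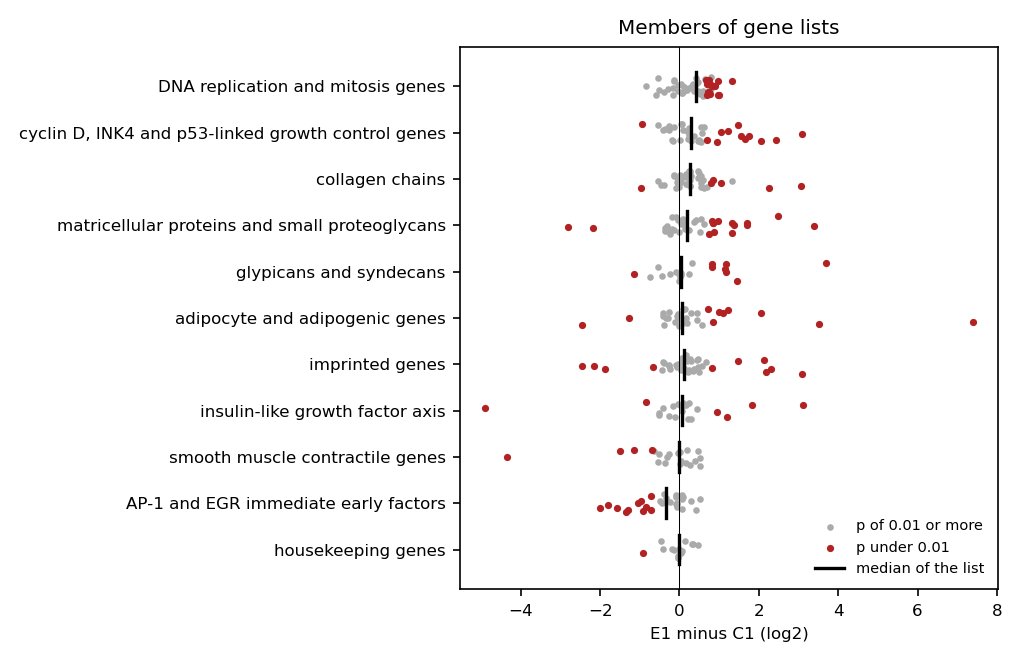
Difference E1 minus C1 (log2, horizontal axis) of each measured member of 11 gene lists (rows), with members at p under 0.01 in red, the others in grey and the median of the list as a black bar. Growth control and replication genes lie mostly to the right of 0 and immediate early factors to the left, while several lists with large single differences have a median near 0.

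Imprinted genes, which are read from 1 parental allele, went both ways, with a median of 0.11. At p under 0.01, 6 of 41 were higher and 4 lower (3.48% and 3.47% over all genes). Beside Cdkn1c, Ndn (necdin) rose by 2.82 at its called probe set (6.59 and 6.63 in C1, 9.54 and 9.32 in E1, adjusted p = 0.0415) and differed by 2.30 to 2.91 at its other probe sets above background. Slc38a4 (2.13) and Peg12 (1.48) were higher. Plagl1 was at 11.56 and 11.65 in C1 and 9.48 and 9.41 in E1 (-2.16), and Dlk1 and Nap1l5 (-1.87) were lower.

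Nuclear receptors went both ways. Pgr, the progesterone receptor, was at 7.19 and 7.50 in C1 and 5.23 and 4.63 in E1 (-2.41, adjusted p = 0.0864), and Esr1, the oestrogen receptor, was 1.05 lower. Further probe sets of both, with means below background, read -0.59 and -0.44 for Pgr and 0.25 and -0.33 for Esr1. The vitamin D receptor Vdr (-1.45) was lower and the retinoic acid receptor Rarb (2.06) higher. Of 44 nuclear receptors 4 were higher and 6 lower at p under 0.01. Of 53 chemokines, interleukins and receptors 4 were higher and 8 lower. Over all genes 3.48% were higher and 3.47% lower. Il16 (-2.18, but -0.05 and -0.37 at 2 dimmer probe sets), Il11 (-1.87), Ccl9 (-2.35), Cxcl5 (-1.60) and Cxcl14 (-1.54) were lower, and the chemokine receptor Ackr3 (2.22) and Ccl2 (1.03) were higher. Inhbb, a subunit of activin, was at 7.17 and 7.80 in C1 and 10.18 and 10.24 in E1 (2.73).

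In a list of 16 genes, those that the study names with Esr1, Ldb1 and Ldb2 added, Pgr and Esr1 were lower and Fli1, an Ets factor, was higher (1.56) at p under 0.01. Fli1 and Zcchc8 were read here at brighter probe sets than those the study lists. The study's own ones, with means below background, differed by 2.17 and 0.33 respectively. Rac3 was at 4.76 and 5.44 in C1 and 4.69 and 5.46 in E1, a difference between clones of -0.03 (adjusted p = 0.972). The list's median was -0.20. Lists with few differences included 16 housekeeping genes (median -0.00, 1 lower at p under 0.01), 20 genes of cholesterol synthesis (-0.08, 0 past p under 0.01) and 43 cytosolic ribosomal proteins (-0.03).

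Differences followed whole chromosomes. Over 11730 genes with a mean above background, the median of E1 minus C1 was 0.48 on chromosome 1, -0.51 on chromosome 10 and -0.47 on chromosome 16, which are 1.40-fold higher, 1.42-fold lower and 1.38-fold lower in E1. On the other 17 chromosomes it was between -0.15 and 0.20, and over all genes -0.02. On chromosome 1, 88.5% of 654 genes had a higher mean in E1, on chromosome 10, 85.6% of 570 a lower one, and on chromosome 16, 83.8% of 359. The shift was seen with each retrovirus: on the Deaf-1 arrays the medians were 0.42, -0.59 and -0.57, and on the empty arrays 0.55, -0.48 and -0.35. Within a clone, the median of Deaf-1 minus empty was between -0.11 and 0.08 on every chromosome. No set of genes was tested, and no DNA measurement was used here.

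Calls were concentrated there, but these chromosomes were chosen after their medians were seen. A shift of most genes of a chromosome raises such counts, so they count the same values again. At p under 0.01, 175 genes of chromosome 1 (26.8%) were higher and 14 lower, 166 of chromosome 10 (29.1%) were lower and 10 higher, and 79 of the 359 of chromosome 16 were lower and 4 higher. Together these chromosomes held 13.5% of the genes above background and 448 of the 1209 with p under 0.01, or 37.1%. On them 28.3% of genes had such a p, against 7.50% on the others. Of the genes at least 1 log2 unit apart with both retroviruses they held 60 of 222 higher and 57 of 187 lower.

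**Figure D4:**
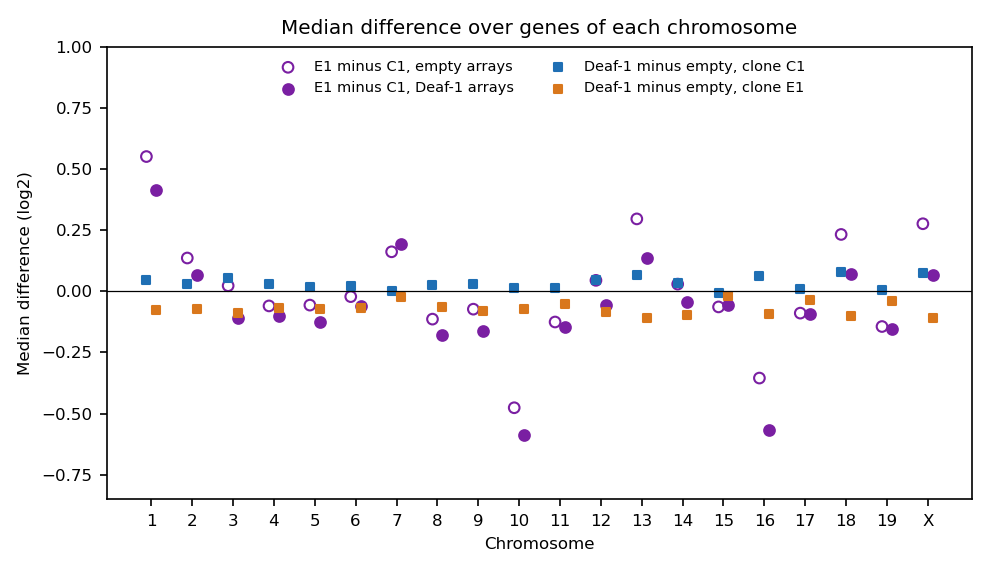
Median difference (log2) over the genes above background of each chromosome, as E1 minus C1 on the empty (open purple circles) and Deaf-1 arrays (filled purple circles) and, within each clone, as Deaf-1 minus empty (squares, C1 blue, E1 orange). Chromosome 1 lies above and chromosomes 10 and 16 below the others with both retroviruses, and the squares stay between -0.11 and 0.08.

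The shift ran along the whole of each chromosome. When consecutive genes were divided into blocks of about 60, the medians of the 10 blocks of chromosome 1 were between 0.33 and 0.56, those of the 9 blocks of chromosome 10 between -0.71 and -0.41 and those of the 5 blocks of chromosome 16 between -0.62 and -0.36. On chromosome 4 the first 8 blocks (487 genes) were between -0.12 and 0.04, and the last 4 (240 genes) between -0.30 and -0.23. On chromosome 13 all 6 blocks were between 0.16 and 0.25. Blocks all of 1 sign, at smaller sizes than on chromosomes 1, 10 and 16, were also seen on chromosomes 2, 5, 7, 8, 9, 11, 17, 18, 19 and X. Examples are 7 (0.07 to 0.21), 18 (0.10 to 0.15) and 8 (-0.19 to -0.06).

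**Figure D5:**
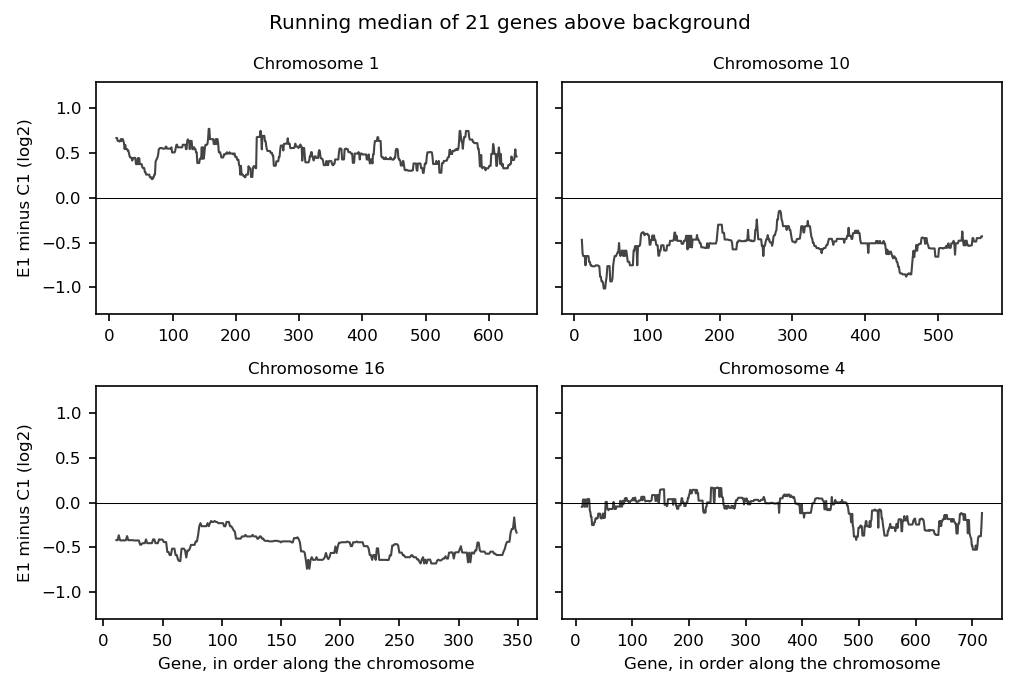
Running median of E1 minus C1 (log2, vertical axis) over 21 consecutive genes above background, in gene order along chromosomes 1, 10, 16 and 4. Chromosome 1 stays above 0 and chromosomes 10 and 16 below it from end to end, and chromosome 4 steps below 0 toward its end.

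Genes named above lie there too. Dock10, Kif1a, Col6a3, Dpt, Irs1, Phlda3, Cenpf, Inhbb and Ackr3, all higher in E1, are on chromosome 1, Crybg1, Lum, Plagl1, Esr1, Igf1 and Sesn1, all lower, on chromosome 10, and Abi3bp, Mylk and Cebpd, also lower, on chromosome 16. The part of the chromosome-wide shift in their differences was not tested. Several of the largest differences ran against their chromosome. Igfbp5, Prg4 and Cd34, a marker of stromal and vascular progenitors (-2.51), are on chromosome 1 and were lower in E1. Popdc3 and Bves are on chromosome 10 and Rpl39l on chromosome 16, and these rose. Some neighbouring genes were both far apart between the clones. Among genes at least 1 log2 unit apart with both retroviruses (222 higher and 187 lower of 18193) there were 17 pairs of measured neighbours. Of these 17 pairs, 14 went in the same direction and 8 lay on chromosomes 1, 10 or 16. How many such pairs a random gene order would give was not tested. The pairs on other chromosomes included Lhx8 with AI606473, Hoxa11 with Hoxa11os, Hspa1b with Hspa1a and Adamtsl4 with Ecm1. There, Nrep with Epb41l4a and Cox6b2 with Il11 went in opposite directions.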

How the data were processed

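RNA of the 4 arrays was read on Affymetrix mouse expression arrays. The deposited table holds log2 expression, which the authors computed by RMA; the submitters' processing notes name RMA and limma without versions. It was not normalized again. Of 45101 probe sets 64 controls were left out and 45037 tested. Symbols came from the platform annotation (34945 probe sets with 1, 932 with several, 9160 with none), chromosomes and gene order from RefSeq (GRCm38.p6). One probe set a gene was kept, the highest mean of the 4 arrays (18193 genes).

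Clones were compared in limma 3.58.1 (lmFit, then eBayes; R 4.3.3) with retrovirus as a block, two-sided, with Benjamini-Hochberg adjustment. The prior added 3.21 degrees of freedom. The script was tested on simulated data. An exact permutation test of 2 arrays against 2 cannot give a p below 0.333. The 48 gene lists (1584 genes) and the members were chosen with earlier results of these data known, and were described without a set test. Named genes were the 15 highest and 15 lowest t statistics and the 15 largest differences each way among probe sets with 1 symbol, an adjusted p under 0.05 and both arrays of a clone above background, up to 6 genes a list by t, the defining markers, the genes the study names (with Esr1, Ldb1 and Ldb2) and sex-linked transcripts. Genes named beyond these were chosen after their values were seen, as were chromosomes 1, 10, 16 and 4. Alternatives were other scalings, filters and priors, no block, and each array left out (clone alone in the model).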

Additional observations from a re-analysis of the deposited data

Results flagged for a closer look

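For 4 genes that the study names the difference between clones had opposite signs with the Deaf-1 and the empty retrovirus arrays, each sign resting on 1 array of each clone, so the difference between the retroviruses was not tested. E1 minus C1 on the Deaf-1 arrays less that on the empty arrays was 0.22 for 4931408D14Rik, 0.37 for Kng1, 0.087 for Rac3 and -0.28 for Zcchc8. All 4 were below 0.4 in size and none had p under 0.01 between the clones. Zcchc8 was read here at a brighter probe set than the one the study lists.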

How the results depend on the processing

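The medians of chromosomes 1, 10 and 16 kept their direction under every alternative run. That of chromosome 1 was 0.38 when all probe sets of a gene were averaged. The calls at an adjusted p under 0.05 (31 higher, 18 lower) became 1118 and 1188 without the retrovirus block, 683 and 603 after further quantile normalization, 723 and 868 after median centring, 524 and 412 after cyclic loess, 222 and 192 above background, 1117 and 1223 at a mean of at least 6, 860 and 836 with an intensity trend, 1478 and 1709 without the block above background, and 19 higher for differences beyond 1.5-fold. With 1 array and so the block left out they were 0 to 0 each way. At p under 0.01 the counts (1150 and 1275) were 1973 and 2373 without the block, 1744 higher after quantile normalization, 1933 lower after median centring, 2038 lower without the block above background, 346 and 292 beyond 1.5-fold, 743 to 1220 and 660 to 1788 with 1 array left out, and 810 lower without the genes of chromosomes 1, 10 and 16, an alternative chosen after seeing the data. At a mean of at least 6, 228 and 156 probe sets differed by 1 with both retroviruses. The cause was not tested. E1 minus C1 on the Deaf-1 arrays less that on the empty arrays moved with intensity, with a median of 0.12 at a mean up to 4 and -0.18 at 5 to 8. The signs of Rac3 (0.054 after quantile normalization, 0.0026 after cyclic loess), Agbl5 (0.024) and Zcchc8 (0.14, both averaged over probe sets) turned. With 1 array left out, which mixes clone with retrovirus since the block is dropped, so that a gene responding to Deaf-1 can turn by construction, signs also turned for 4931408D14Rik (-0.48 to 0.36), Agbl5 (-1.05 to 0.091), Deaf1 (-1.15 to 0.57), Eif4g3 (-0.39 to 0.81), Kng1 (-0.63 to 0.38), Krt18 (-0.032 to 0.71), Rac3 (-0.41 to 0.36), Rrp12 (-0.55 to 0.13) and Zcchc8 (-0.17 to 0.046), none with p under 0.01 in the reported fit. Of the list medians, 35 of 48 changed sign in at least 1 alternative, none of them growth control, replication, immediate early, collagen or matricellular genes. The reported fit pairs arrays of like retrovirus through the block. Probe sets near background limit what can be seen of dim genes.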
